A study of Drosophila melanogaster with 4 samples.

Results

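Polycomb (Pc) binding along the left arm of chromosome 2, called 2L, was taken from ChIP-seq of wild-type Drosophila melanogaster embryos. The embryos were of the Oregon-R strain and 14 to 16 h old. The series held 2 ChIP libraries with antibody against Pc (replicates 1 and 2) and 2 libraries of input DNA, and all 4 had the same strain, genotype and stage. Each ChIP library had a list of regions of significant enrichment placed on FlyBase r5. The regions described here are those of both lists on 2L, apart from those that overlap the stretch from 5360000 to 5530000. They number 242 of 1189 regions in replicate 1 and 271 of 1405 in replicate 2. Leaving out that stretch removed 4 regions of replicate 1 and 14 of replicate 2. Whole embryos were used, so each region averages over the cell types of the embryo.

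Polycomb belongs to Polycomb repressive complex 1, of which it is the chromodomain protein, and the complex holds developmental regulator genes silent once their expression pattern has been set. In flies the complex is recruited to short Polycomb response elements, and from there the protein and the histone mark it reads, trimethylated lysine 27 of histone H3, spread over broad domains. Developmental regulators on 2L include wg, which encodes a Wnt ligand, the zinc finger genes esg and tsh, the nuclear factor gene dac, and the neighbouring zinc finger genes salm and salr. Their arm and order were read from the RefSeq gene table of Release 6. That table is of another build than the regions, so no gene was placed in a region, and regions are named by position.

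Polycomb covered nearly the same amount of 2L in both libraries. The replicate 1 regions held 1.53 Mb, or 6.72% of the arm outside the left-out stretch, and those of replicate 2 held 1.52 Mb, or 6.67%. The density of regions was 10.6 per Mb in replicate 1 and 11.9 per Mb in replicate 2. On X, 2R, 3L and 3R the covered share ran from 5.39% to 9.19% in replicate 1 and from 5.68% to 9.14% in replicate 2. The 2L share lay within these ranges, and so did the 7.33% and 7.23% obtained with the left-out stretch kept in. Here and below, the other large arms were taken whole, while 2L lacks that stretch. Read numbers were not given for either library, and the depth behind a region is therefore unknown.

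Most of the bound sequence on 2L lay in few broad regions, although the typical region was a few kb wide. The median width on 2L was 2361 bases in replicate 1 (quartiles 1641 and 6484) and 2032 bases in replicate 2 (quartiles 1501 and 4779). The narrowest regions measured 1304 and 1303 bases. The widest were a 90.6 kb region in replicate 1 and an 88.45 kb region in replicate 2, and they lay at the same place. Replicate 1 had 40 regions of 10 kb or more and replicate 2 had 38. They were 16.5% and 14.0% of all regions on the arm, with 60.9% and 58.9% of its bound bases. Regions under 2 kb, 94 in replicate 1 and 131 in replicate 2, held 9.54% and 13.3% of the bases. From 2 kb to under 10 kb there were 108 regions in replicate 1 and 102 in replicate 2. Replicate 2 thus had the longer list through its narrow regions, with fewer regions in both wider classes. On the other large arms the median width ran from 2040 to 2278 bases in replicate 1 and from 1807 to 2066 bases in replicate 2, differences that were not tested.

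**Figure D1:**
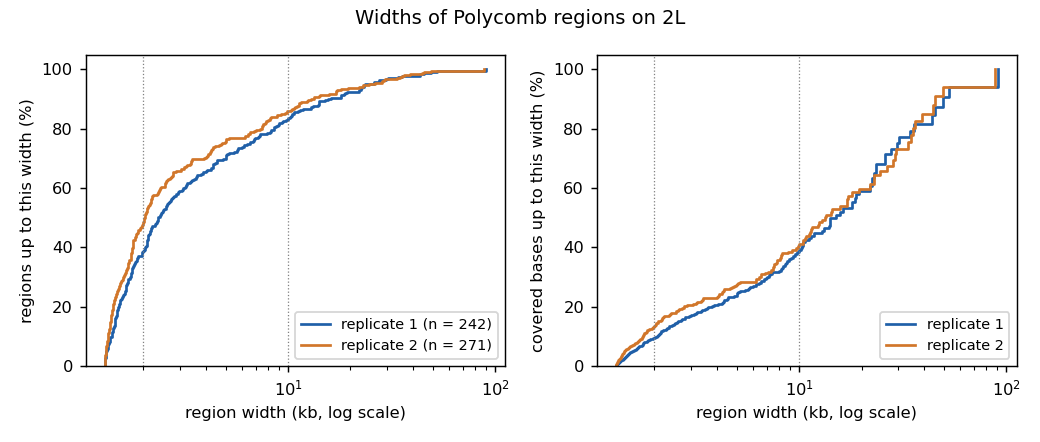
Cumulative share of regions (left, percent) and of covered bases (right, percent) against region width in kb on a log scale, for the 242 regions of replicate 1 and the 271 regions of replicate 2 on 2L. Dotted lines mark 2 and 10 kb. The regions under 2 kb are 38.8% and 48.3% of all regions, with 9.54% and 13.3% of the bases.

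Broad regions carried the higher scores. The score is the authors' own value for each region, a positive number of unstated scale, and is used here to describe and rank regions within a list. Its median on 2L was 0.531 in replicate 1 (range 0.270 to 1.99) and 0.574 in replicate 2 (range 0.232 to 2.10). Among regions under 2 kb the medians were 0.458 and 0.516, and the highest values were 0.651 and 0.774. From 2 kb to under 10 kb the medians were 0.559 and 0.610. Among regions of 10 kb or more they were 1.12 and 1.06, and the lowest values were 0.576 and 0.674. The upper end of the narrowest class therefore overlapped the lower end of the broadest one. Spearman's rho between width and score was 0.82 over the 242 regions of replicate 1 and 0.71 over the 271 of replicate 2. These regions share a library and neighbouring ones share a block, so the values are descriptions. On the other large arms rho ran from 0.73 to 0.81 and from 0.57 to 0.76.

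**Figure D2:**
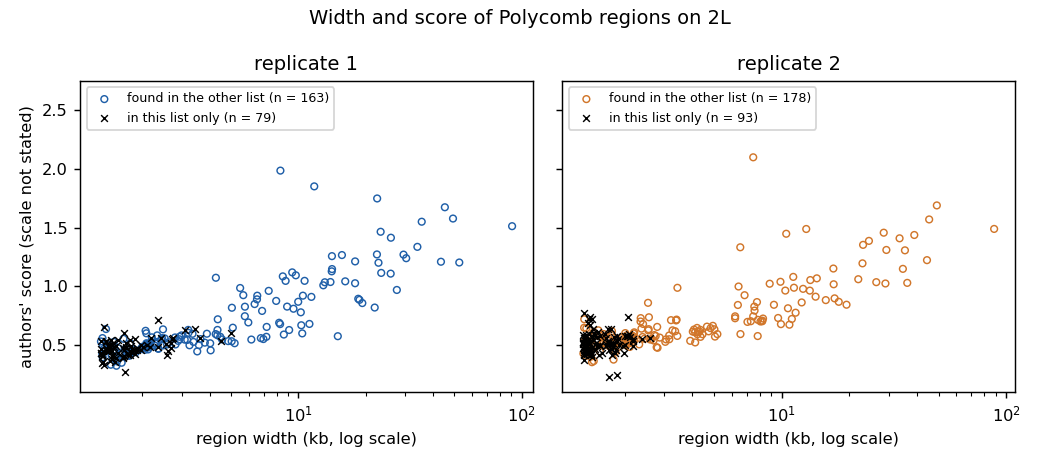
Authors' score against region width in kb on a log scale, with 1 point per region of 2L, replicate 1 on the left and replicate 2 on the right. Circles are regions found in the other list and crosses are regions in 1 list only. The crosses sit at the narrow end, and none exceeds a score of 0.714 in replicate 1 or 0.774 in replicate 2.

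The region with the highest score on 2L was also the first region of the arm in both lists. Its borders were 5038 and 13342 in replicate 1 (8.31 kb, score 1.99) and 5065 and 12538 in replicate 2 (7.47 kb, score 2.10). No other region of replicate 1 lay within 115.1 kb of it, and in replicate 2 the nearest was 30.7 kb away. It was the only region under 10 kb among the 10 highest of replicate 1 that were found in both lists. The second of them ran from 3656968 to 3668741 (11.8 kb), with scores of 1.85 in replicate 1 and 1.49 in replicate 2. The third ran from 20765190 to 20787714 (22.5 kb), with 1.75 and 1.46. Both scored lower in replicate 2, whereas the 49.2 kb region from 3813095 to 3862340 scored 1.58 and 1.69.

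The other 6 of these 10 were broad. The region from 6805944 to 6851220 (45.3 kb) scored 1.67 and 1.57, the one from 1939489 to 1975153 (35.7 kb) 1.55 and 1.41, and the one from 3530376 to 3620950 (90.6 kb) 1.51 and 1.49. The region from 12607143 to 12630491 (23.3 kb) scored 1.47 and 1.35. The 26.0 kb region from 576659 to 602615 scored 1.42 and 1.39, and the 34.1 kb region from 8812078 to 8846184 scored 1.34 and 1.44. Replicate 2 covered most bases of each of the 10 regions, and the lowest share, 89.99%, was that of the first region of the arm. The only region that ranked among the 10 highest of replicate 2 without a counterpart among these 10 ran from 5920524 to 5931009 (10.5 kb, score 1.45).

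The lists agreed on the broad regions and disagreed on the narrow ones. On 2L, 163 of 242 regions of replicate 1 (67.4%, exact Clopper-Pearson 95% interval 61.1 to 73.2%) shared at least 1 base with a region of replicate 2. In the other direction 178 of 271 did (65.7%, 59.7 to 71.3%). Over all sequences of the files, 2L included, 64.7% of the replicate 1 regions and 60.7% of the replicate 2 regions were found in the other list. These shares lie inside the intervals for 2L. On X, 2R, 3L and 3R the shares ran from 60.0% to 66.5% in replicate 1. In replicate 2 they ran from 51.3% to 66.9%, and the differences between arms were not tested. Among regions of 10 kb or more, all 40 of replicate 1 were found (interval 91.2 to 100%), and so were all 38 of replicate 2 (90.7 to 100%). In the class from 2 kb to under 10 kb, the counts were 89 of 108 (82.4%) and 91 of 102 (89.2%). Under 2 kb they were 34 of 94 (36.2%, 26.5 to 46.7%) and 49 of 131 (37.4%, 29.1 to 46.3%). Wide regions have more bases with which to overlap by accident, and the part of this in the shares was not tested. These intervals reflect counting error alone, and adjoining regions depend on each other.

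**Figure D3:**
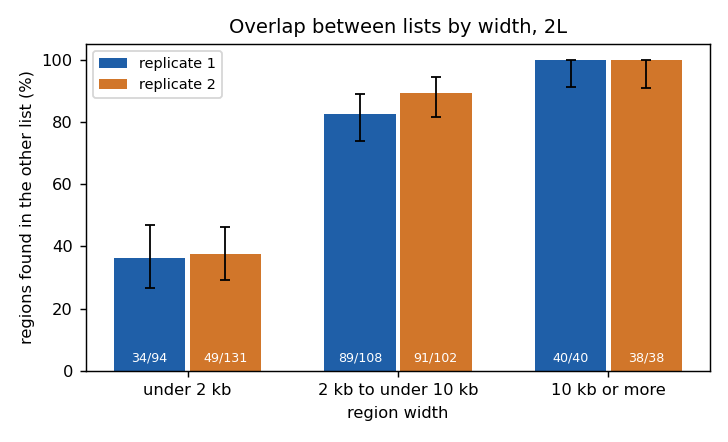
Share of 2L regions that overlap a region of the other list by at least 1 base (percent), by width class and replicate. Bars start at 0, error bars are exact 95% Clopper-Pearson intervals, and the counts are printed in the bars. The share is 36.2% and 37.4% under 2 kb and 100% in both lists from 10 kb on.

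Measured in bases, the lists shared more than they did in regions. The sequence listed in both came to 1230 kb, which was 80.1% of the bases of replicate 1 and 80.8% of those of replicate 2. On X, 2R, 3L and 3R this share ran from 80.9% to 87.0% in replicate 1, so 2L was the lowest there. In replicate 2 it ran from 76.9% to 87.4%, and these differences were not tested. The Jaccard index, the shared bases over those in either list, was 67.3%. Regions of 10 kb or more were covered by the other list to 93.5% and 94.3%, those from 2 kb to under 10 kb to 69.9% and 78.3%, and those under 2 kb to 26.5% and 26.1%. The 305.2 kb of replicate 1 not shared lay almost evenly in single-list regions (147.1 kb) and at the edges or in parts of regions that were found (158.1 kb). In replicate 2 the corresponding values were 293.1, 148.4 and 144.7 kb. Several regions of the other list were met by 46 replicate 1 and 37 replicate 2 regions, so a share of the disagreement lay in how a stretch was divided.

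Where a region paired with a single counterpart, the scores of the partners were correlated. The lists formed 75 such pairs on 2L. Their scores gave a Spearman's rho of 0.80 and a Pearson's r of 0.96, values that describe pairs from the same 2 libraries. By width in replicate 1, rho was 0.92 in 14 pairs from 10 kb up, 0.76 in 42 pairs from 2 kb to under 10 kb, and 0.32 in 19 pairs under 2 kb. Replicate 2 had the higher score in 3 of 14, 23 of 42 and 18 of 19 of these pairs. This count depends on which list sets the class. With the class set by the width in replicate 2, which was tried after seeing the data, replicate 2 had the higher score in 14 of 21 pairs under 2 kb. The partner from the list that did not set the class was the wider one in 15 of 19 and 15 of 21 of these narrow pairs, so no difference in width between the libraries is read from them. Over all 150 ends of the paired regions, the start or end differed between the lists by a median of 466 bases (quartiles 207 and 1130), and 37 ends lay within 200 bases of each other.

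**Figure D4:**
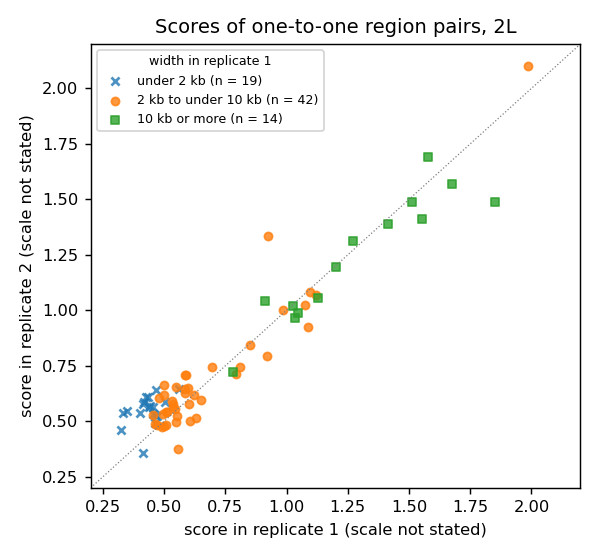
Score in replicate 2 against score in replicate 1 for the 75 one-to-one pairs of overlapping regions, on linear axes of unstated scale, with the diagonal dotted. Symbols give the width class in replicate 1. Of the 14 pairs of 10 kb or more, 3 lie above the diagonal, and the one with the highest replicate 1 score lies well below it (1.85 and 1.49), while 18 of 19 pairs under 2 kb lie above it.

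Regions in 1 list only had a lower median width and a lower median score than those found in both. Replicate 1 had 79 of them. Their median width was 1648 bases, where that of its regions found in both lists was 4026 bases, and the median scores were 0.475 and 0.572. Replicate 2 had 93, with median widths of 1482 and 3188 bases and median scores of 0.522 and 0.617. Their widths reached 5.01 kb in replicate 1 and 2.59 kb in replicate 2, and 19 and 11 of them measured 2 kb or more. Their highest scores, 0.714 and 0.774, were above the upper quartiles of all regions on the arm (0.680 and 0.706). In replicate 1, 45 of 79 (57.0%) were within 5 kb of a replicate 2 region, and the median distance was 3.47 kb. In replicate 2, 28 of 93 (30.1%) were that close to a replicate 1 region, and the median distance was 21.5 kb. Most single-list regions of replicate 1 thus lay beside sequence listed in replicate 2, and most of those of replicate 2 stood by themselves. The difference between the lists was not tested.

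Distances were also taken to the broad regions of the same list. Of the regions under 2 kb found in both lists, 27 of 34 in replicate 1 and 37 of 49 in replicate 2 lay within 50 kb of a region of 10 kb or more. Of those in 1 list only, 27 of 60 and 22 of 82 did. The latter lay a median of 61.2 kb (replicate 1) and 194.7 kb (replicate 2) from a broad region. For the narrow regions found in both lists the medians were 9.60 and 11.1 kb. The median scores of these groups were close, with 0.454 for found and 0.460 for single-list regions in replicate 1, and 0.521 and 0.514 in replicate 2. Narrow regions in 1 list only thus lay farther from broad regions at similar scores, which is given as a description without a test. All broad regions met a region of the other list, so being found and lying near a broad region are not independent. The part of this in the distances was not tested.

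The widest single-list regions of replicate 1 lay inside 2 of the main blocks, the widest and the third widest. They ran from 11378379 to 11383392 (5.01 kb, score 0.603), from 11398683 to 11403201 (4.52 kb, 0.534) and from 12634777 to 12638403 (3.63 kb, 0.560), each 0.628 kb or less from a replicate 2 region. Those with the highest scores ran from 11316993 to 11319339 (0.714), from 7365602 to 7366952 (0.651) and from 159637 to 163074 (0.642). The last of these was 21.7 kb from any replicate 2 region, while the others were under 2 kb away.

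The widest single-list regions of replicate 2 were narrower. They ran from 5108737 to 5111325 (2.59 kb, score 0.561), from 8782562 to 8784942 (2.38 kb, 0.549) and from 43288 to 45469 (2.18 kb, 0.495). The highest scores belonged to a region from 11029232 to 11030551 (1.32 kb, 0.774), which lay 172.4 kb from any region of replicate 1, and one from 19522571 to 19523973 (1.40 kb, 0.742), 38.7 kb away. A region from 16471810 to 16473877 (2.07 kb, 0.742) was 1.66 kb away. The best of these 6 was rank 50 of 271 by score in its list.

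Regions on 2L lay close together. The median distance to the nearest region of the same list was 1.12 kb in replicate 1 (quartiles 0.354 and 3.50 kb) and 1.62 kb in replicate 2 (quartiles 0.477 and 10.5 kb). A neighbour within 1 kb was present for 119 of 242 regions (49.2%) in replicate 1 and 101 of 271 (37.3%) in replicate 2. At the other end, 24 regions of replicate 1 and 34 of replicate 2 had no neighbour within 50 kb. Replicate 1 therefore had more adjoining regions and replicate 2 more isolated ones.

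Joining regions with under 5 kb between them gave 97 blocks in replicate 1 and 133 in replicate 2. Blocks of a single region numbered 55 and 88. The remaining 42 and 45 blocks took in 77.3% and 67.5% of the regions. The 10 widest blocks held 52.3% of the covered bases in replicate 1 and 47.3% in replicate 2. All 37 blocks of 10 kb or more in replicate 1 met a block of replicate 2, and so did all 41 in the other direction. Of the blocks under 2 kb, 2 of 29 and 5 of 60 did.

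When both lists were joined together at the same distance, 2L had 145 blocks, of which 60 held regions of both lists, 28 of replicate 1 only and 57 of replicate 2 only. The 37 joint blocks of 10 kb or more all held regions of both lists, and the widest block with regions of 1 list only measured 7.83 kb. These 37 took in 90.4% of the bases of replicate 1 and 87.4% of those of replicate 2, in 180 and 181 regions. The number of regions per block was thus alike in sum, although only 6 of the 37 were 1 region in each list. Their Jaccard index ran from 24.1% to 99.8% with a median of 73.0%. The highest score within a block ran from 0.590 to 1.85 in replicate 1 and from 0.586 to 1.69 in replicate 2, and between the lists it gave a Spearman's rho of 0.92 over the 37 blocks, which share the libraries.

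In some of the main blocks, 1 or 2 wide regions held most of the covered bases in both libraries. The fourth widest block of replicate 1 ran from 3530376 to 3632765 (102.4 kb). Replicate 1 divided it into 3 regions, of which 1 measured 90.6 kb. Replicate 2 covered 94.8% of the bases of these 3 with 2 regions, the wider measuring 88.45 kb. Those 2 lay 5.76 kb apart and so formed 2 blocks. The block from 18859714 to 18945474 (85.8 kb) had 3 regions in each list, filled 99.1% of its span in replicate 1 and was covered to 97.5% by replicate 2, with highest scores of 1.24 and 1.31. The block from 3813095 to 3862340 (49.2 kb) was 1 region in each list and was covered to 99.8%. That pair had starts of 3813095 and 3813207 and ends of 3862340 and 3862347, so its borders agreed to within 200 bases at both sides. The block from 6795128 to 6851220 (56.1 kb) consisted of 4 regions in replicate 1, which filled 89.0% of its span. Replicate 2 had 2 regions there, which covered 91.3% of the replicate 1 bases.

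Other main blocks were strings of many regions, and the libraries divided them into blocks differently. The widest block of replicate 1 ran from 11327792 to 11496216 (168.4 kb, 25 regions), and regions filled 81.0% of it. Replicate 2 had 24 regions there in 4 blocks, which covered 73.7% of the replicate 1 bases, and the highest scores were 1.27 and 1.06. Those 4 blocks together ran from 11329533 to 11495074, so the outer borders were close. A further block lay 8.45 kb to its left, from 11283665 to 11319339 (35.7 kb, 6 regions). The second widest block ran from 14399570 to 14544039 (144.5 kb, 24 regions). In replicate 2 it was the widest of the arm, from 14378620 to 14558551 (179.9 kb, 27 regions). There replicate 2 covered 94.4% of the bases of the replicate 1 regions and 74.5% of the 37.4 kb between them, while replicate 1 covered only 71.3% of the replicate 2 bases. Replicate 1 was thus the fuller list in the first of these blocks and replicate 2 in the second.

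The remaining 4 of the 10 widest blocks were of mixed form. In the block from 12566806 to 12692813 (126.0 kb, 10 regions), replicate 2 covered 86.1% of the bases of the replicate 1 regions. The highest scores there were 1.47 and 1.35. In the block from 8812078 to 8888585 (76.5 kb, 7 regions) that share was 88.8%, with highest scores of 1.34 and 1.44. Its counterpart in replicate 2 began further left, at 8782562. Replicate 1 had a separate block there, from 8786161 to 8803401 (17.2 kb, 4 regions), 8.68 kb to the left. In the block from 18763438 to 18828975 (65.5 kb, 7 regions) the share was 78.1%, and the highest scores were 1.21 and 1.15. In each list 1 region, of 43.5 kb in replicate 1 and 34.7 kb in replicate 2, held most of the covered bases of this block. It lies 30.7 kb to the left of the 85.8 kb block above. The block from 21841534 to 21902886 (61.4 kb, 10 regions) was the sparsest. Regions filled 65.9% of it, and its highest scores were the lowest of the 10, with 0.828 and 0.867. Replicate 2 met it with 3 blocks, which covered 63.5% of the bases of the replicate 1 regions.

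**Figure D5:**
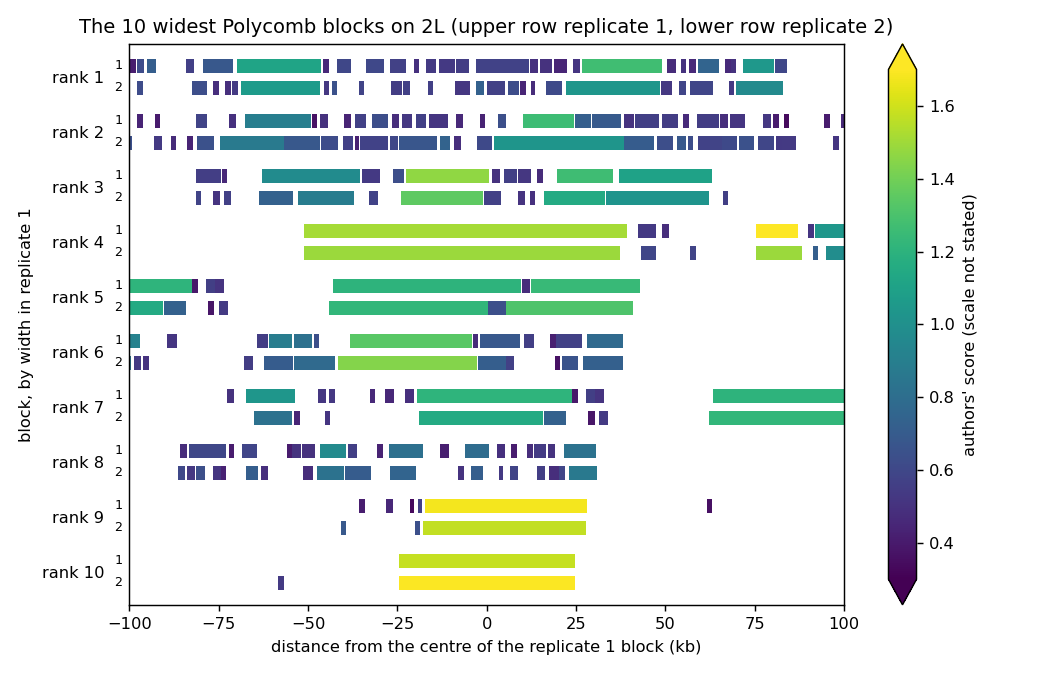
The 10 widest blocks of replicate 1 on 2L that meet a block of replicate 2, ordered by width from the top, with replicate 1 in the upper and replicate 2 in the lower row of each pair. The horizontal axis is the distance in kb from the centre of the replicate 1 block, bars are single regions (neighbouring blocks within 100 kb are shown too), and colour is the authors' score. The blocks of rank 4, 5, 7, 9 and 10 are dominated by 1 or 2 wide regions in each list. Those of rank 1, 2 and 8 are strings of many regions, with some regions of 10 kb or more in rank 1 and 2.

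Along the arm, bound sequence was concentrated in the same places in both libraries. In the 23 full stretches of 1 Mb, the covered length per Mb had a Pearson's r of 0.97 and a Spearman's rho of 0.98 between the lists, as a description of neighbouring stretches of 1 arm. These values do not count the left-out regions, which fall between 5 and 6 Mb, where the remaining regions covered 25.9 and 29.6 kb. Kept in, they would raise the covered length of the arm from 1535 to 1687 kb in replicate 1. In replicate 2 it would rise from 1523 to 1664 kb, so the fullness of that stretch is understated here. Without them, the 5 fullest stretches held 51.4% of the bases of replicate 1 and 49.8% of those of replicate 2. Between 11 and 12 Mb the regions covered 184.6 kb in replicate 1 and 150.6 kb in replicate 2. Between 3 and 4 Mb they covered 178.2 and 173.5 kb, and between 18 and 19 Mb 162.6 and 144.1 kb. The largest difference, 39.6 kb, was between 14 and 15 Mb, where replicate 1 covered 125.4 kb and replicate 2 165.0 kb. In 5 of the 23 stretches both lists covered under 20 kb. These were the stretches from 4 to 5 Mb (4.65 and 4.15 kb), 10 to 11 Mb (9.93 and 19.3 kb), 13 to 14 Mb (1.48 and 1.63 kb), 17 to 18 Mb (0 and 0 kb) and 22 to 23 Mb (9.98 and 12.8 kb).

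Long parts of 2L had no Polycomb region in either library. Stretches of 200 kb or more without a region numbered 33 in replicate 1 and 39 in replicate 2, and made up 77.9% and 73.1% of the arm. With the regions of both lists as borders there were 37 such stretches, over 15.0 Mb or 65.0% of the arm. The longest ran from 16787201 to 18335472 (1548 kb). It was longer in each list alone, at 1847 kb in replicate 1, where 2 regions of replicate 2 lay inside, and 1944 kb in replicate 2, where 3 regions of replicate 1 lay inside. The next longest ran from 21027164 to 21785840 (758.7 kb), from 22262402 to the right end of the arm at 23011544 (749.1 kb), from 13476498 to 14203892 (727.4 kb) and from 12697300 to 13307791 (610.5 kb). The stretch starting at 12697300 began where the 91.5 kb replicate 2 block that overlaps the third widest block of replicate 1 ended.

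The ends of the arm differed. At the left end both lists began at about 5 kb with their highest score. At the right end the last replicate 1 region ran from 22017598 to 22027577 (9.98 kb, score 0.870), and 2 replicate 2 regions overlapped it. The last region of replicate 2 ran from 22260878 to 22262401 (1.52 kb, score 0.610), in that list only and 233.3 kb from any replicate 1 region.

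Next to the left-out stretch the lists were sparse. The last region before it ran from 5088551 to 5089860 in replicate 1 (score 0.433) and from 5212679 to 5214083 in replicate 2 (0.514), and the first left-out one began at 5359511 (0.766) and 5360577 (0.743). The last left-out region ended at 5517573 (0.773) in replicate 1 and 5517293 (0.731) in replicate 2. The next regions ran from 5616607 to 5618936 (0.583) and from 5616498 to 5619045 (0.626).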

How the data were processed

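ChIP-seq against Pc was made from 14 to 16 h embryos fixed with 1.8% formaldehyde, per the labels' protocols. The submitters' processing notes name Bowtie 0.12.7. The authors deposited 1 list of enriched regions per ChIP library, with a score per region, and per the file headers the build is FlyBase r5. For the region caller, its threshold and the scale of the score, nothing was given in the sources used here. The inputs have no values of their own here, so enrichment could not be recomputed.

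Titles gave the groups and replicate numbers. The source name of either ChIP sample carries an experiment number that appears in the other one's file name. Files were assigned to samples as recorded, and an exchange would only swap the replicate names. No region had the same start and end in both lists. Whether the replicates are separate collections of embryos is not stated in the labels.

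Overlap meant at least 1 shared base, and neighbours, overlaps and stretches without regions used all regions of the arm. The functions were tested on simulated lists with known answers. Regions named are the 10 widest blocks and 10 highest-scoring regions of replicate 1 found in both lists, the 3 widest and 3 highest-scoring single-list regions of each list, the 5 longest stretches without regions, and the first and last regions. Others named (neighbours of the left-out stretch, the replicate 2 region ranked among the 10 highest without a counterpart, and the block left of the widest) were chosen after their values were seen. The members and lists were chosen with earlier results of these data known. No test of chance was made. Python 3.11.15, numpy 2.4.6, scipy 1.17.1, pandas 2.3.3 and matplotlib 3.10.9 were used.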

Additional observations from a re-analysis of the deposited data

How the results depend on the processing

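Of 48 values recomputed under other settings, 20 stayed within a tolerance and 28 moved further. A change of direction was not assessed. The tolerance was 1.5 times for counts, the 95% interval for shares of regions and the SD of both libraries for other values per library, while any change of the Jaccard index or of the pair correlation counted as moved. Restricting both lists to the upper 50% of regions by score gave 121 and 136 regions. The covered share was then 5.71% and 5.59%, the median width 6523 and 4690.5 bases, the median score 0.681 and 0.706, the neighbour distance 3.18 and 3.58 kb, the share of replicate 1 regions found 75.2%, and the Jaccard index 71.8%. Keeping the left-out stretch gave covered shares of 7.33% and 7.23% and a Jaccard index of 69.1%. Requiring 50% of both regions to overlap lowered the shares found to 41.7% and 37.3%, and 50% of the shorter region to 59.9% and 57.9%. With regions under 1 kb apart merged, the share of replicate 2 regions found was 59.1%, and the neighbour distance was 3.25 and 4.61 kb. Joining under 1 kb gave 167 and 208 blocks, and joining under 50 kb gave 54 and 64. Within the tolerance for counts, blocks numbered 80 and 109 when joined under 10 kb, and 76 and 89 in the upper 50% by score. Stretches of 200 kb or more numbered 27 in both lists between regions of 2 kb or more, and 28 and 27 in the upper 50%. Among paired regions under 2 kb, replicate 2 scored higher in 94.7% by replicate 1 width and 66.7% by replicate 2 width, an alternative chosen after seeing the data. The rank correlation of paired scores was 0.54 over all overlapping pairs and 0.90 over pairs with 50% of both regions overlapping. No paired analysis was possible because values for the inputs were not at hand. Results are per library or need both lists, so leaving out a replicate gives no further value. Depth is unknown, so a region missing from a list may be unenriched or under the threshold.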
